A study of Saccharomyces cerevisiae with 8 samples.

Results

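The genes described here build, remodel and guard the cell wall of budding yeast (Saccharomyces cerevisiae). They are 49 named genes, found by symbol among the 7127 features of the deposited table, and all 49 were among the 6439 genes tested. They were chosen for what their products do, with no measured value in the rule, but with earlier results of these data known. They fall into 5 role groups: 4 PIR proteins, 10 mannoproteins and other structural wall proteins, 15 enzymes of glucan remodelling and hydrolysis, 10 genes of glucan and chitin synthesis, and 10 sensors, kinases and targets of the cell wall integrity pathway.

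Poly(A) RNA was sequenced from 8 cultures of the haploid laboratory strain BY4741, 2 biological replicates in each of 4 groups. Wild-type (WT) cells and cells lacking TRM2 (Trm2KO), the methyltransferase that makes 5-methyluridine in tRNAs, were each grown in rich medium (YPD) without and with hygromycin B at 50 µg/mL. This aminoglycoside inhibits the translocation step of translation elongation. The series asks how this tRNA modification bears on gene expression when elongation runs freely and when it is inhibited. Untreated and treated below mean without and with hygromycin B. The labels' protocols state 200 µg/mL Geneticin for the knockout cultures alone, so an effect of the knockout and one of Geneticin cannot be told apart. Treated cultures are given a harvest density (OD600) of 0.4 and the general protocol one of 0.6 to 0.8, so hygromycin B and harvest density cannot be told apart either. Cultures were started from a single colony, per the labels, which do not say whether replicates shared it.

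The yeast wall is a net of beta-1,3-glucan with branches of beta-1,6-glucan and a little chitin, and its outer face is a layer of heavily glycosylated mannoproteins. Most mannoproteins hang on beta-1,6-glucan by the remnant of a GPI anchor, whereas PIR proteins (proteins with internal repeats) are bound straight to beta-1,3-glucan. When the wall is weakened, sensors in the plasma membrane signal through Rho1 and Pkc1 to a kinase chain, Bck1, Mkk1 and Mkk2, and Slt2, and Slt2 acts on the transcription factors Rlm1 and SBF (Swi4 with Swi6). Many wall genes are also known to be transcribed at set stages of the cell cycle.

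TRM2 was at 116 and 122 normalised FPKM in untreated and 158 and 152 in treated wild type, and was listed at 0 in all 4 knockout libraries. FPKM are fragments per kilobase of transcript, scaled to the mapped fragments of the library, and are here divided by 1 scale factor per library (0.611 to 1.44). Since they are per length, levels of different genes are set side by side below. Whether short genes were measured as fully as long ones was not tested. The FPKM summed to between 1171270.0 and 1654850.0 per library, features with ribosomal DNA names held 2.01% to 19.3% of that sum, and libraries of 1 group correlated at 0.984 to 0.989 (Pearson, log2 values). The median absolute log2 difference between replicates was 0.13 in treated wild type and 0.0576 to 0.0774 in the other groups. Of the markers of an a-type haploid, STE2 and BAR1 were above 0 in every library, while the a-factor genes MFA1 and MFA2 were listed at 0 in all 8. The alpha-type genes MF(ALPHA)1, MF(ALPHA)2 and STE3 stayed between 0.455 and 12.7. In treated wild type BAR1 was near the top of that range, at 12 and 13.7 against 161 and 155 untreated. STE2 was at 233 and 260 there, against 708 and 706 untreated. Differences below are on the log2(normalised FPKM + 1) scale, given as estimate ± standard error of the limma fit, and changed, rose and fell mean a limma p, adjusted by Benjamini and Hochberg over all 6439 genes, under 0.05.

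In untreated wild type the wall genes spanned most of the range of the transcriptome. CCW12, a small GPI mannoprotein of the growing bud, was highest, at 6242 and 6120.3 normalised FPKM, above 99.8% of the genes tested. It was followed by SED1, a GPI protein abundant in stationary cells, at 3439 and 3709, and CWP2, a major GPI mannoprotein of the wall, at 3189 and 3424. The libraries of SED1 lay just above those of CWP2, by less than the gap between replicates of either, while those of CCW12 stood clear of both. At the other end, FKS3, a relative of the glucan synthase linked to the spore wall, was at 4.34 and 4.43 and GAS4, a glucan elongase of the spore wall, at 6.93 and 6.01. Together the 49 genes held 2.18% and 2.42% of the FPKM of all protein-coding features in wild type without and 0.995% and 1.36% with hygromycin B. In the knockout their shares were 1.95% and 2.15% without and 2.10% and 2.15% with it. The treated wild-type libraries thus stood below all 6 others.

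By role, the summed normalised FPKM of the mannoproteins and other structural proteins was 17498 and 18055 without and 5171 and 7769 with hygromycin B in wild type. The same sum was 17165 and 18671 without and 16596 and 17459 with it in the knockout. PIR proteins summed to 2834 and 2859.8 without and 408 and 682 with hygromycin B in wild type, and to 2196 and 2641 without and 1656 and 1729 with it in the knockout. The sum of the integrity group went the other way in wild type, from 1054 and 1053 to 1439 and 1521. It was at 792 and 861 in the untreated and 757 and 738 in the treated knockout. In wild type 5 of the 10 genes of this group rose and 4 fell, near the 40.4% and 38.4% of all genes. Synthesis genes moved little in sum, between 951 and 1088 over all 8 libraries.

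Sequences upstream of the genes were read from RefSeq assembly R64, and all 49 genes matched by identifier; the build of the deposited table was not given in the sources used here. In the 600 bases before the start codon, 16 of 49 wall genes (32.7%) held the letters CGCGAAA on either strand, the core bound by SBF, against 387 of 5999 protein-coding genes (6.45%). The palindromic Rlm1 site was in 13 of 49 windows (26.5%) against 124 of 5999 (2.07%). The other 3 sites, searched on both strands of the same windows, were the MBF site ACGCGT (16.3% of wall genes, 6.33% of all), the stress response element AGGGG (26.5% and 39.7%) and the Rim101 site GCCAAG (26.5% and 23.2%). The SBF and MBF letters share CGCG, but 1 copy of CGCG cannot belong to both. In windows of 300 bases the SBF letters were in 6 of 49 against 3.95% and the Rlm1 site in 6 of 49 against 1.18%; the wider window was chosen after that count was seen. Windows can reach into a neighbouring gene, and a match is a run of letters, not a shown binding site. The wall genes include known targets of Rlm1 and SBF, so part of the higher shares may be built into the list.

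**Figure D1:**
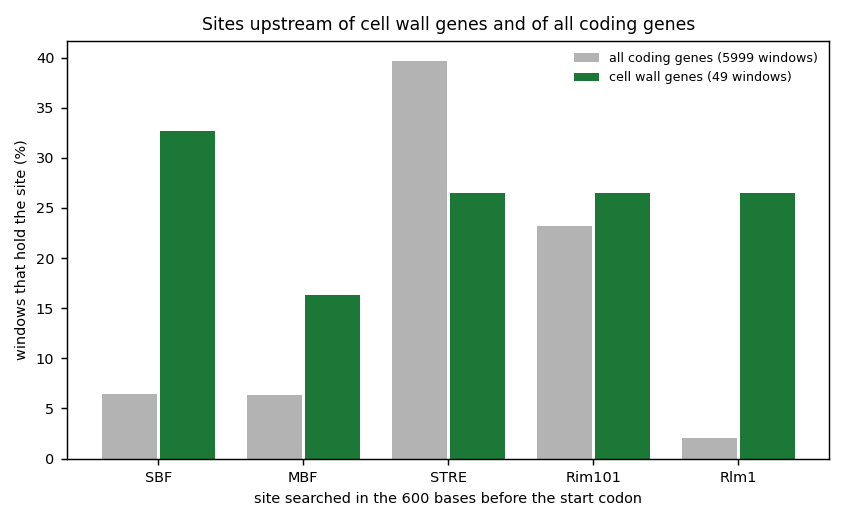
Share of upstream windows (vertical axis, percent of windows of 600 bases before the start codon) that hold each of 5 sites (horizontal axis), for the 49 cell wall genes (green) and all 5999 protein-coding genes (grey). The SBF and Rlm1 sites stand out, at 32.7% against 6.45% and 26.5% against 2.07%.

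Shown here are the stretches with the SBF letters upstream of the 6 such genes that fell most with hygromycin B in wild type. CIS3, PIR1 and GAS2, which have no such letters in their windows, fell more than CWP1 and TOS1. Each is printed 5′ to 3′ on the strand of its gene, with the SBF letters (CGCGAAA or, read on the other strand, TTTCGCG) in capitals; in CWP1 the Rlm1 site, nearer the gene, is in capitals too. In R64 they lie at chrXV:797076-797111, forward strand (SRL1), chrXI:258924-258960, forward strand (CWP2), chrIX:127910-127946, forward strand (SIM1), chrXIII:696609-696645, forward strand (GAS3), chrXI:260658-260770, forward strand (CWP1) and chrII:565026-565062, reverse strand (TOS1).
SRL1: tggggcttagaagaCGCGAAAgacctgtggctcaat
CWP2: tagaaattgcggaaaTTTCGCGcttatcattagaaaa
SIM1: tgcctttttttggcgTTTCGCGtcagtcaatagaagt
GAS3: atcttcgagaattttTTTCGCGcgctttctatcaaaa
CWP1: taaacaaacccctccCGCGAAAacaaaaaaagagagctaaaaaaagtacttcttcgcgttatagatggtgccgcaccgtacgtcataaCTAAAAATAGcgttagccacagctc
TOS1: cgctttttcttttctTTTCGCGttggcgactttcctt

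For the Rlm1 site, 4 genes are shown that meet in the paralogue pairs and in the integrity group below, with the site in capitals: PIR3 at chrXI:144106-144145, forward strand, HSP150 at chrX:120211-120250, forward strand, PST1 at chrIV:563207-563246, forward strand and YPS1 at chrXII:388703-388742, reverse strand.
PIR3: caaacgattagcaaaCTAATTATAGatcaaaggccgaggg
HSP150: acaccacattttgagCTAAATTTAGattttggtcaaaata
PST1: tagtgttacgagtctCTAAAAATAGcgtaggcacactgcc
YPS1: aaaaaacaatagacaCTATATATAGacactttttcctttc

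With hygromycin B in wild type, 36 of the 49 wall genes fell and 9 rose, while 38.4% of all genes tested fell and 40.4% rose. Their median change was −1.07 against 0.02 for all genes. Called falls of at least 2-fold, on the scale with 1 added, numbered 25 and such rises 3. The share of all genes past 2-fold is not given here, so these 2 counts have no baseline. In a bulk culture, fewer cells at the stage that makes a transcript and less of it per cell cannot be told apart. The 4 members with no call were PIR3, SED1, FKS3 and RLM1, whose treated and untreated libraries overlapped.

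These numbers depend on the scaling of the libraries. With FPKM as deposited, all genes had a median of 0.61 in this comparison and 85.6% of the calls were rises, against 51.3% here, and 16 members fell and 8 rose; with TPM the median of all genes was 0.40, 72% of calls were rises, and 27 members fell and 10 rose. Calls of 24 members held under every alternative, 16 falls and 8 rises. The calls of KRE1, KRE6 and KNH1 were lost when a library was left out: KRE1 without library 1 of the treated wild-type group (adjusted p = 0.0665), KRE6 without library 2 of the untreated wild-type group (adjusted p = 0.0602) and KNH1 without library 2 of the untreated wild-type group (adjusted p = 0.185), library 1 of the treated wild-type group (adjusted p = 0.0887), library 2 of the treated wild-type group (adjusted p = 0.124), library 1 of the treated knockout group (adjusted p = 0.0526) or library 2 of the treated knockout group (adjusted p = 0.0514).

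In the knockout hygromycin B moved fewer members and by less: 21 fell and 5 rose, while 22.3% of all genes fell and 20.9% rose, and the median was −0.26 against −0.02 for all genes. SIM1 and TIP1 were the 2 members with a called fall of at least 2-fold, and no member rose that much. The share of all genes past 2-fold is not given for the knockout either, so these counts have no baseline. The change was smaller in the knockout than in wild type for 43 of 49 members (87.8%), and for 80.6% of all genes. No library is common to these 2 comparisons. Across the 49 members the changes in the 2 genotypes correlated at Pearson r = 0.568 and Spearman rho = 0.565, against 0.488 and 0.564 across all 6439 genes, which are not independent of each other.

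None of the 26 calls in the knockout held under every alternative. Some alternatives added calls: with only the compared groups in the fit, 7 more members were called and 0 lost their call. With FPKM as deposited no member was called (105 genes in all; the median of all genes moved to 0.36), and with TPM 3 fell and 3 rose (the median moved to 0.26); of all calls 48.3% were rises here, 78.1% with FPKM as deposited and 90.5% with TPM. Leaving out libraries gave 13 called members without untreated knockout library 2, 16 without treated knockout library 1 and 14 without treated knockout library 2. Of the 26, 13 held without each library in turn. For the other 13, BCK1, CIS3, ECM33, EXG1, FKS1, GAS1, GAS5, KRE6, MKK2, PIR1, SLG1, TIP1 and YPS1, the change in the knockout is given below as a value only.

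The test of the difference itself, the genotype by hygromycin B interaction, passed for 39 members. For 30 the change was more positive in the knockout and for 9 more negative, against 30.6% and 33.9% of all genes, and the median was 0.85 against −0.03. With FPKM as deposited 11 were more positive and 0 more negative, and with TPM 24 and 7; of all interaction calls 47.5% were positive here, 30.1% with FPKM as deposited and 38.9% with TPM. Treated knockout cells differed from treated wild type at most wall genes, with 33 higher and 11 lower in the knockout (37.3% and 39.9% of all genes) and a median of 0.88 against −0.03. With FPKM as deposited these counts were 16 and 10, and with TPM 26 and 11; of all calls 48.3% were higher here, 16.6% with FPKM as deposited and 28.7% with TPM. This comparison, the interaction and the response in wild type share the treated wild-type libraries.

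**Figure D2:**
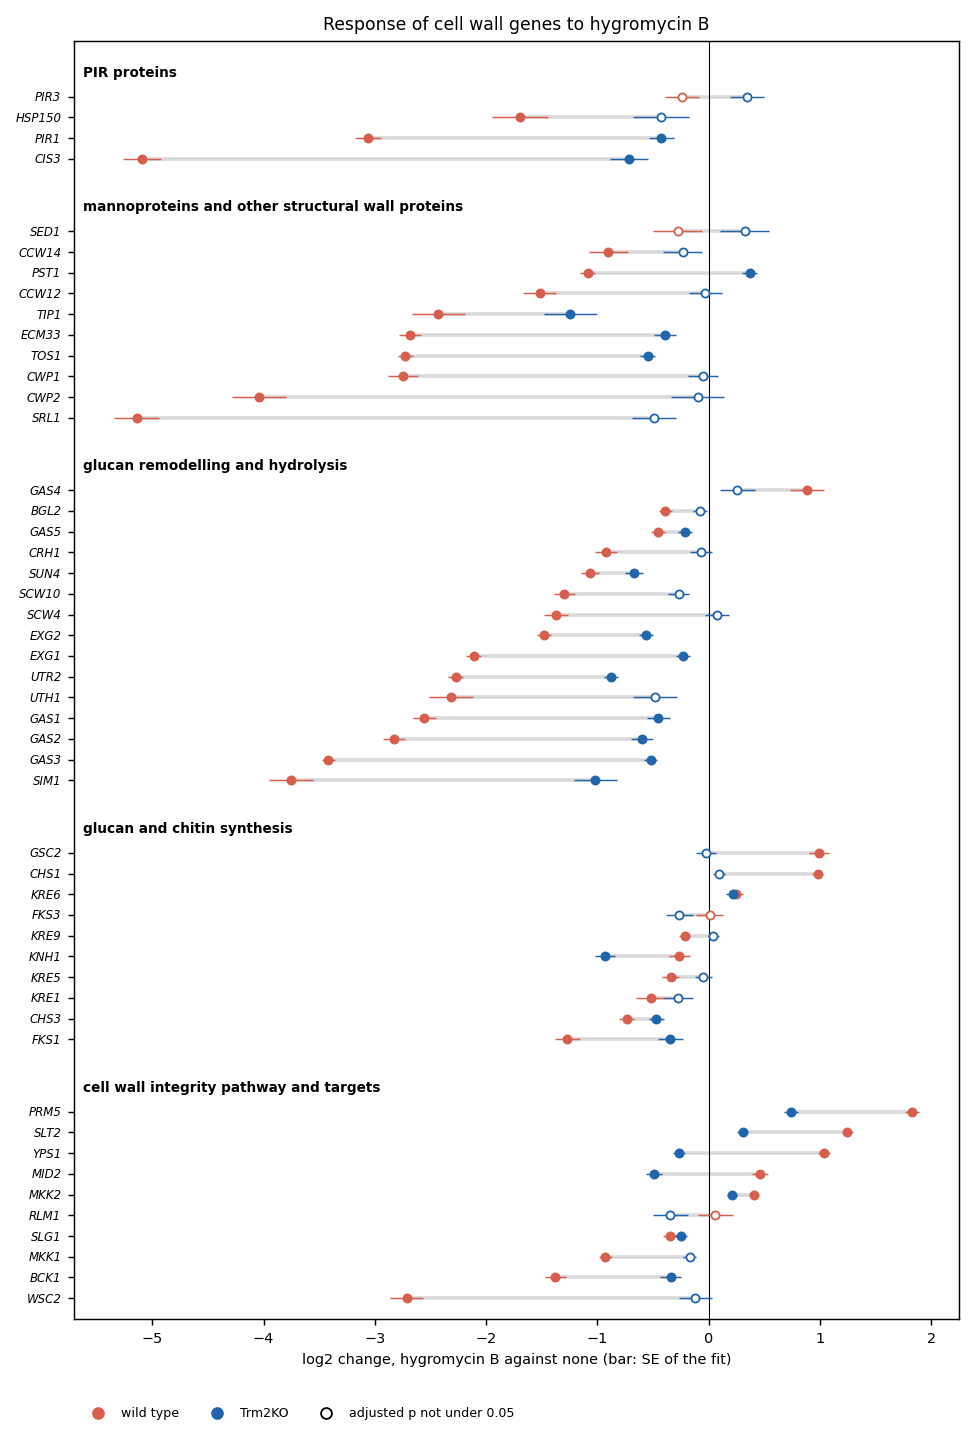
Log2 change with hygromycin B (horizontal axis, bars are standard errors of the fit) for each of the 49 genes (rows, by role) in wild type (red) and Trm2KO (blue); open circles mark changes whose adjusted p was not under 0.05. Wild-type changes reach −5.14, and in the knockout they run from −1.25 to 0.74.

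Of the 4 PIR proteins, 3 fell with hygromycin B in wild type, as did 38.4% of all genes. CIS3 (PIR4), a glucan-bound structural protein, was at 867 and 839 normalised FPKM in wild type without and 20.7 and 27.9 with hygromycin B. In the knockout CIS3 was at 628 and 829 without and 421 and 456 with it. Its treated wild-type libraries lay far below the other 6, and treated knockout was below untreated knockout without overlap. CIS3 fell by 5.09 ± 0.17 in wild type (limma adjusted p = 1.54e-06), changed by −0.72 ± 0.17 in the knockout, and under hygromycin B was 4.13 ± 0.17 higher in the knockout (adjusted p = 3.45e-06).

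PIR1 was at 661 and 631 normalised FPKM in wild type without and 67.4 and 87.2 with hygromycin B. In the knockout PIR1 was at 625 and 673 without and 479.9 and 486 with it. The untreated libraries of the 2 genotypes overlapped, and the treated ones were far apart. It fell by 3.06 ± 0.12 in wild type (limma adjusted p = 2.18e-06) and changed by −0.42 ± 0.12 in the knockout. HSP150 (PIR2), a secreted and heat-induced glycoprotein, was at 1285 and 1372 normalised FPKM in wild type without and 307 and 548 with hygromycin B. In the knockout HSP150 was at 938 and 1134 without and 749 and 780.4 with it. Both treated wild-type libraries were below the others. HSP150 fell by 1.69 ± 0.25 in wild type (limma adjusted p = 0.000778), a call lost with FPKM as deposited. Its knockout level under hygromycin B was 0.90 ± 0.25 higher (adjusted p = 0.0155), and this call ended with FPKM as deposited, with quantile normalisation, and without library 1 of the treated knockout group (adjusted p = 0.0535) or library 2 of the treated knockout group (adjusted p = 0.0628).

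PIR3, the least expressed of the group, was at 20.2 and 17.3 normalised FPKM in wild type without and 13.4 and 18.3 with hygromycin B. In the knockout PIR3 was at 4.92 and 5.41 without and 6.74 and 6.87 with it. All 4 knockout libraries were below all 4 wild-type ones, and hygromycin B left the wild-type libraries overlapping. PIR3 differed by −1.68 ± 0.15 in the untreated knockout from untreated wild type (limma adjusted p = 0.000612), a call that held under every alternative, and by −1.10 ± 0.15 in the treated knockout from treated wild type (adjusted p = 0.000607). Its changes with hygromycin B were −0.24 ± 0.15 in wild type (95% interval −0.61 to 0.13) and 0.34 ± 0.15 in the knockout.

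The mannoproteins and other structural proteins fell as a group: 9 of 10 fell in wild type with hygromycin B and none rose (median −2.56). Between treated genotypes 9 of 10 were higher in the knockout than in wild type (median 1.86). Shares of all genes were 38.4% fallen and 40.4% risen in the first comparison, and 37.3% higher in the second. SRL1, a serine- and threonine-rich mannoprotein, showed the largest fall of all 49 genes. It was at 767 and 737 normalised FPKM in wild type without and 15.9 and 25.9 with hygromycin B. In the knockout SRL1 was at 719 and 823 without and 566 and 529 with it. The untreated libraries of the genotypes overlapped, and treated knockout lay somewhat below them. SRL1 fell by 5.14 ± 0.20 in wild type (limma adjusted p = 2.36e-06), and its change in the knockout was −0.49 ± 0.20 (adjusted p = 0.0913).

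CWP2, whose level in untreated wild type was the third highest of the 49, was at 3189 and 3424 normalised FPKM in wild type without and 151 and 265 with hygromycin B. In the knockout CWP2 was at 3497 and 3391 without and 3032 and 3402 with it. All knockout libraries overlapped or bordered the untreated wild type, while the treated wild type was far lower. It fell by 4.04 ± 0.24 in wild type (limma adjusted p = 1.06e-05) and its change in the knockout was −0.10 ± 0.24 (95% interval −0.68 to 0.48). CWP1, its neighbour on chromosome XI and another GPI mannoprotein, was at 154 and 164 normalised FPKM in wild type without and 19.6 and 26.6 with hygromycin B. In the knockout CWP1 was at 200.2 and 197 without and 184 and 201 with it. Here too the treated wild type stood alone at the bottom. CWP1 fell by 2.74 ± 0.13 in wild type (limma adjusted p = 4.84e-06), with −0.05 ± 0.13 in the knockout. Under hygromycin B the knockout was 4.00 ± 0.24 higher for CWP2 and 3.02 ± 0.13 higher for CWP1.

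TOS1, a wall-bound protein named as a target of SBF, was at 549.8 and 527 normalised FPKM in wild type without and 75.6 and 85.6 with hygromycin B. In the knockout TOS1 was at 528 and 546 without and 364 and 369 with it. It fell by 2.73 ± 0.068 in wild type (limma adjusted p = 8.62e-07) and by 0.55 ± 0.068 in the knockout (adjusted p = 0.0017; this second call was lost with FPKM as deposited and TPM). ECM33, a GPI protein needed for bud growth, was at 806 and 752 normalised FPKM in wild type without and 108 and 134 with hygromycin B. In the knockout ECM33 was at 853 and 882 without and 657 and 664 with it. The treated wild type was lowest and the treated knockout between it and the untreated cells. ECM33 fell by 2.69 ± 0.10 in wild type (limma adjusted p = 2.15e-06) and changed by −0.39 ± 0.10 in the knockout.

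PST1, the paralogue of ECM33 known from regenerating protoplasts, was at 209.7 and 204 normalised FPKM in wild type without and 90.7 and 103 with hygromycin B. In the knockout PST1 was at 161 and 153 without and 204 and 202 with it. It was the only member called in opposite directions as a fall in wild type and a rise in the knockout, with the treated knockout back at the level of untreated wild type. The changes were −1.09 ± 0.068 in wild type (limma adjusted p = 1.31e-05), 0.37 ± 0.068 in the knockout (adjusted p = 0.0068) and −0.39 ± 0.068 between the untreated genotypes (adjusted p = 0.00532), and FPKM as deposited ended all of these calls. Of the remaining members, CCW12 fell by 1.52 ± 0.15 in wild type, CCW14 (covalently bound) by 0.90 ± 0.17 and TIP1, a cold-induced mannoprotein, by 2.43 ± 0.24. FPKM as deposited ended the calls of CCW12 and CCW14, and TPM that of CCW14. SED1 was the 1 member of the group without a call in wild type (−0.28 ± 0.22, limma adjusted p = 0.275), with treated libraries of 2287 and 3780.0 normalised FPKM on either side of the untreated ones.

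TIP1 also had the largest change of the 49 genes in the knockout, −1.25 ± 0.24, and was at 1385 and 1630.3 normalised FPKM in wild type without and 213 and 362 with hygromycin B. In the knockout TIP1 was at 1058 and 1266 without and 492 and 482 with it. Its treated knockout libraries were below the untreated ones and above treated wild type. The knockout call ended with FPKM as deposited and without library 2 of the untreated knockout group (adjusted p = 0.0503), and the higher level of the treated knockout (0.81 ± 0.24, limma adjusted p = 0.0187) ended with FPKM as deposited, with TPM, and without library 1 of the treated knockout group (adjusted p = 0.0717) or library 2 of the treated knockout group (adjusted p = 0.0619).

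**Figure D3:**
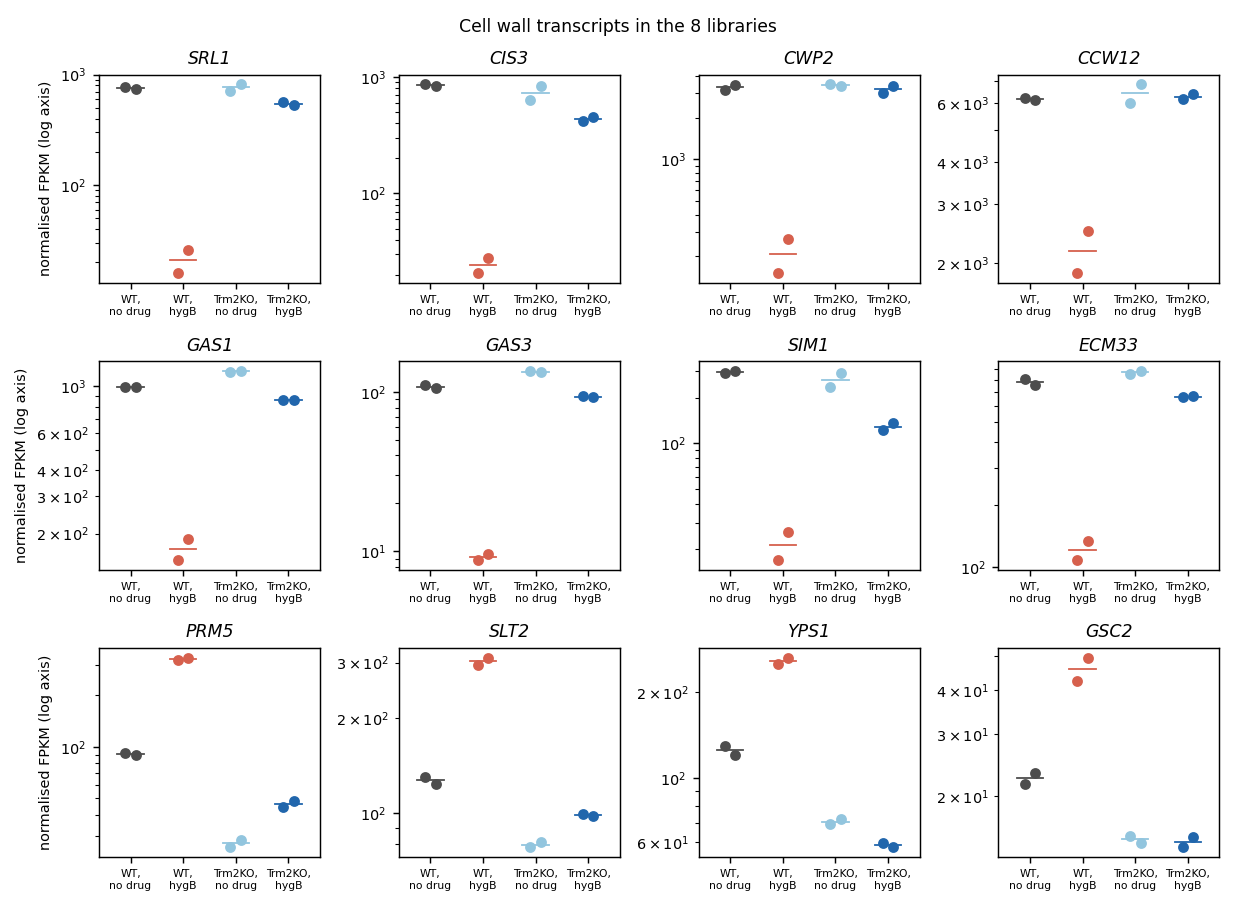
Normalised FPKM (vertical axis, log scale, with its own range in each panel) of 12 cell wall genes in each of the 8 libraries; points are libraries and lines are means of the 2 libraries of a group. In the 8 upper panels the treated wild-type libraries (red) lie below the other 6, and in the 4 lower panels, PRM5, SLT2, YPS1 and GSC2, they lie above them.

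Enzymes that cut and rejoin glucan fell nearly as uniformly. In wild type 14 of 15 fell with hygromycin B and 1, GAS4, rose (median −1.48). Under hygromycin B 14 were higher in the knockout and 1, again GAS4, was lower. Among all genes 38.4% fell and 40.4% rose, and 37.3% were higher and 39.9% lower. SIM1, a SUN-family protein related to glucosidases, was at 289 and 301 normalised FPKM in wild type without and 16.9 and 25.9 with hygromycin B. In the knockout SIM1 was at 236 and 291 without and 122 and 136 with it. Treated libraries lay below untreated ones in both genotypes, much further in wild type. SIM1 fell by 3.75 ± 0.19 in wild type (limma adjusted p = 6.19e-06) and by 1.02 ± 0.19 in the knockout (adjusted p = 0.00768; lost with FPKM as deposited).

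The GAS family of beta-1,3-glucan elongases split. GAS3 was at 110.4 and 106 normalised FPKM in wild type without and 8.79 and 9.65 with hygromycin B. In the knockout GAS3 was at 136 and 133 without and 94.1 and 92.8 with it. Replicates were close in every group, and GAS3 fell by 3.42 ± 0.056 in wild type (limma adjusted p = 3.87e-07) and by 0.52 ± 0.056 in the knockout (adjusted p = 0.00106; lost with FPKM as deposited and TPM). GAS1, the main elongase of growing cells, was at 988 and 990.3 normalised FPKM in wild type without and 149 and 188 with hygromycin B. In the knockout GAS1 was at 1176 and 1185 without and 862 and 864 with it. It fell by 2.55 ± 0.10 in wild type (limma adjusted p = 2.59e-06), and its knockout change was −0.45 ± 0.10.

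GAS2 and GAS4 are both known for the spore wall, and they moved in opposite directions in wild type. GAS2 was at 35.3 and 36.3 normalised FPKM in wild type without and 3.76 and 4.62 with hygromycin B. In the knockout GAS2 was at 25.5 and 25.3 without and 17.4 and 15.6 with it. It fell by 2.83 ± 0.10 in wild type (limma adjusted p = 1.78e-06). GAS4 was at 6.93 and 6.01 normalised FPKM in wild type without and 14.6 and 11.1 with hygromycin B. In the knockout GAS4 was at 2.96 and 3.15 without and 3.65 and 4.05 with it. It rose by 0.88 ± 0.16 in wild type (limma adjusted p = 0.00177). Both were lower in the untreated knockout than in untreated wild type, with differences of −0.48 ± 0.10 and −0.88 ± 0.16; FPKM as deposited ended both calls, and that of GAS2 also ended without library 2 of the untreated wild-type group (adjusted p = 0.0568) or library 2 of the untreated knockout group (adjusted p = 0.052). GAS5 was at 208 and 203 normalised FPKM in wild type without and 141 and 159 with hygromycin B. In the knockout GAS5 was at 252 and 259.5 without and 217 and 225 with it. Its fall of 0.45 ± 0.065 in wild type was lost with FPKM as deposited and TPM.

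CRH1 and UTR2, which join chitin to glucan, changed by different amounts. CRH1 was at 312 and 329 normalised FPKM in wild type without and 152 and 186 with hygromycin B. In the knockout CRH1 was at 364 and 383 without and 359.5 and 352 with it. Its treated wild-type libraries were the low ones. UTR2 was at 474 and 480.2 normalised FPKM in wild type without and 92.1 and 104 with hygromycin B. In the knockout UTR2 was at 743 and 775 without and 419.9 and 405 with it. Treated wild type was lowest for both. UTR2 fell by 2.27 ± 0.067 in wild type (limma adjusted p = 1.15e-06) and CRH1 by 0.92 ± 0.10 (adjusted p = 0.000125), the latter lost with FPKM as deposited. UTR2 was also 0.67 ± 0.067 higher in the untreated knockout (adjusted p = 0.000801), the largest such rise among the 49, and lost with FPKM as deposited and TPM. UTR2 fell by 0.88 ± 0.067 in the knockout (adjusted p = 0.000474; lost with the same scalings).

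The exoglucanase EXG1 was at 715 and 709 normalised FPKM in wild type without and 154 and 174 with hygromycin B. In the knockout EXG1 was at 617 and 617 without and 520.1 and 529.7 with it. Treated wild type stood far below the other groups. Its membrane-anchored relative EXG2 was at 80.2 and 79.2 normalised FPKM in wild type without and 29.2 and 26.7 with hygromycin B. In the knockout EXG2 was at 86.6 and 83.8 without and 55.5 and 59.3 with it. Here both treated groups were below both untreated ones. EXG1 fell by 2.11 ± 0.065 in wild type (limma adjusted p = 1.32e-06) and EXG2 by 1.48 ± 0.061 (adjusted p = 2.8e-06), the latter lost with FPKM as deposited. EXG2 fell in the knockout too, by 0.56 ± 0.061 (adjusted p = 0.00112; lost with FPKM as deposited and TPM).

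SCW4 and SCW10 are glucanase-like wall proteins. SCW4 was at 695 and 681 normalised FPKM in wild type without and 239 and 295 with hygromycin B. In the knockout SCW4 was at 788 and 878 without and 891 and 859 with it. The knockout libraries with and without hygromycin B overlapped. SCW10 was at 595 and 569 normalised FPKM in wild type without and 214 and 261 with hygromycin B. In the knockout SCW10 was at 543 and 553 without and 464 and 446 with it. Both genes were lowest in treated wild type, and for SCW10 the treated knockout also lay below every untreated library. They fell by 1.37 ± 0.11 (limma adjusted p = 3.24e-05) and 1.3 ± 0.094 (adjusted p = 2.39e-05) in wild type, and FPKM as deposited ended both calls. Their knockout changes were 0.07 ± 0.11 and −0.27 ± 0.094.

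Of the SUN family besides SIM1, UTH1 was at 1102 and 1129.5 normalised FPKM in wild type without and 181 and 276 with hygromycin B. In the knockout UTH1 was at 1091 and 1351 without and 856 and 879.5 with it. Its untreated libraries overlapped between genotypes. SUN4 was at 256 and 235 normalised FPKM in wild type without and 109.6 and 124 with hygromycin B. In the knockout SUN4 was at 317 and 343 without and 215 and 199 with it. Treated wild type was lowest for both. UTH1 fell by 2.32 ± 0.20 in wild type (limma adjusted p = 4.94e-05) and SUN4 by 1.07 ± 0.085 (adjusted p = 3.6e-05; lost with FPKM as deposited). SUN4 fell in the knockout as well, by 0.67 ± 0.085 (adjusted p = 0.00179; lost with FPKM as deposited and TPM). BGL2, a major endoglucanase, changed least among the falls of this group, by −0.39 ± 0.061 in wild type, and its direction turned with FPKM as deposited, TPM and quantile normalisation.

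Of the 10 genes of glucan and chitin synthesis, 6 fell and 3 rose in wild type with hygromycin B (median −0.24). Across all genes 38.4% fell and 40.4% rose there. In the knockout 3 fell and 1 rose, against 22.3% and 20.9% of all genes. The knockout counts include FKS1 and the 1 rise, KRE6, whose calls were lost when some library was left out. FKS1, the main catalytic subunit of beta-1,3-glucan synthase, was at 134 and 155 normalised FPKM in wild type without and 54.4 and 64 with hygromycin B. In the knockout FKS1 was at 159.6 and 139 without and 116 and 119 with it. Its untreated libraries overlapped between genotypes as well. GSC2 (FKS2), its alternative known to be made under wall stress and in poor carbon sources, was at 21.7 and 23.3 normalised FPKM in wild type without and 42.2 and 49.3 with hygromycin B. In the knockout GSC2 was at 15.4 and 14.8 without and 14.4 and 15.3 with it. FKS1 was lowest and GSC2 highest in treated wild type, while in the knockout FKS1 was somewhat lower with hygromycin B and GSC2 overlapped. FKS1 fell by 1.27 ± 0.11 in wild type (limma adjusted p = 5.58e-05; lost with FPKM as deposited), and GSC2 rose by 0.99 ± 0.09 (adjusted p = 6.74e-05), with −0.02 ± 0.09 for GSC2 in the knockout (95% interval −0.24 to 0.19).

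Chitin synthases also moved apart. CHS1, which repairs chitin at cell separation, was at 95.8 and 90.3 normalised FPKM in wild type without and 186 and 182 with hygromycin B. In the knockout CHS1 was at 68.6 and 65.1 without and 70.5 and 72.1 with it. Treated wild type was far above every other group. CHS3, which makes most wall chitin, was at 56.2 and 59.2 normalised FPKM in wild type without and 32.4 and 36.1 with hygromycin B. In the knockout CHS3 was at 55.3 and 53 without and 38.9 and 38.6 with it. Treated wild type was the highest group for CHS1 and the lowest for CHS3. CHS1 rose by 0.98 ± 0.051 in wild type (limma adjusted p = 6.59e-06), and CHS3 fell by 0.74 ± 0.065 (adjusted p = 6.02e-05; lost with FPKM as deposited and TPM). CHS3 also fell in the knockout, by 0.47 ± 0.065 (adjusted p = 0.00246; lost with the same scalings). The change of CHS1 in the knockout was 0.09 ± 0.051.

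The beta-1,6-glucan genes changed little in wild type, and the falls of KRE1, KRE5, KRE9 and KNH1 turned in direction with FPKM as deposited. KRE9 was at 356 and 365 normalised FPKM in wild type without and 302 and 319.6 with hygromycin B. In the knockout KRE9 was at 346 and 362 without and 365 and 363 with it. Its fall of 0.21 ± 0.051 in wild type turned with FPKM as deposited, TPM and quantile normalisation. KNH1, the paralogue of KRE9, was at 51.9 and 58.5 normalised FPKM in wild type without and 46.2 and 45.2 with hygromycin B. In the knockout KNH1 was at 25.3 and 29.4 without and 14.3 and 13.3 with it. All 4 knockout libraries of KNH1 were below all 4 wild-type ones, and the treated knockout was lowest. KNH1 was lower in the untreated knockout (−0.99 ± 0.093, limma adjusted p = 0.000665; lost with FPKM as deposited) and fell further there with hygromycin B, by 0.93 ± 0.093 (adjusted p = 0.000853; lost with FPKM as deposited). KRE1, KRE5 and KRE6, whose products act in the same pathway, changed by −0.52 ± 0.13, −0.34 ± 0.078 and 0.24 ± 0.063 in wild type, and FKS3 by 0.01 ± 0.12 (adjusted p = 0.956).

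In the integrity pathway 5 of 10 genes rose and 4 fell in wild type with hygromycin B (median 0.23). These counts are near the shares of all genes, of which 40.4% rose and 38.4% fell. PRM5, a membrane protein and known target of Rlm1, was at 92.1 and 89.8 normalised FPKM in wild type without and 320.1 and 330.2 with hygromycin B. In the knockout PRM5 was at 26 and 28.6 without and 44.4 and 48.1 with it. The 4 groups were fully separate, with treated wild type highest and the untreated knockout lowest. PRM5 rose by 1.83 ± 0.065 in wild type (limma adjusted p = 1.83e-06) and by 0.74 ± 0.065 in the knockout (adjusted p = 0.000645; lost with FPKM as deposited), and was lower in the knockout both without (−1.70 ± 0.065, adjusted p = 4.56e-05, held under every alternative) and with hygromycin B (−2.79 ± 0.065).

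SLT2, the MAP kinase of the pathway and itself transcribed through Rlm1, was at 130.4 and 124 normalised FPKM in wild type without and 295 and 311 with hygromycin B. In the knockout SLT2 was at 78.1 and 80.8 without and 99.1 and 97.8 with it. The order of the groups was that of PRM5, without overlap. SLT2 rose by 1.25 ± 0.051 in wild type (limma adjusted p = 2.71e-06) and by 0.31 ± 0.051 in the knockout (adjusted p = 0.00481; lost with FPKM as deposited). Its level in the untreated knockout was −0.67 ± 0.051 from untreated wild type (adjusted p = 0.000327; lost with FPKM as deposited).

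YPS1, a GPI-anchored aspartic protease (yapsin) that processes wall proteins, was at 129.6 and 121 normalised FPKM in wild type without and 252 and 264 with hygromycin B. In the knockout YPS1 was at 69.2 and 72 without and 59.4 and 57.5 with it. It rose by 1.04 ± 0.054 in wild type (limma adjusted p = 6.62e-06), whereas its change in the knockout was −0.27 ± 0.054, and the untreated knockout was −0.82 ± 0.054 from wild type (adjusted p = 0.000246; lost with FPKM as deposited). MID2, a stress sensor, rose by 0.46 ± 0.073 in wild type (adjusted p = 0.00106) and fell by 0.49 ± 0.073 in the knockout (adjusted p = 0.00319; lost with FPKM as deposited and TPM). The annotation places JIP3 on the opposite strand over 371 bases of MID2, and since the strand setting of the counting is not given, reads of the 2 genes cannot be told apart.

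WSC2, a surface sensor, was at 99.6 and 102 normalised FPKM in wild type without and 12.4 and 16.9 with hygromycin B. In the knockout WSC2 was at 97.1 and 115 without and 101 and 93.9 with it. It fell by 2.71 ± 0.14 in wild type (limma adjusted p = 7.01e-06) and its knockout change was −0.12 ± 0.14 (95% interval −0.47 to 0.23). SLG1 (WSC1), the main sensor in growing cells, changed by −0.35 ± 0.058 in wild type, and its direction turned with FPKM as deposited and TPM. BCK1, the first kinase of the chain, was at 27.3 and 30.1 normalised FPKM in wild type without and 9.49 and 11.4 with hygromycin B. In the knockout BCK1 was at 26.6 and 27.1 without and 21.1 and 20.9 with it. It fell by 1.38 ± 0.094 in wild type (adjusted p = 1.87e-05; lost with FPKM as deposited).

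MKK1 and MKK2, the paired kinases between BCK1 and SLT2, moved in opposite directions. MKK1 was at 54.7 and 53.6 normalised FPKM in wild type without and 26.6 and 29.4 with hygromycin B. In the knockout MKK1 was at 51.1 and 53.1 without and 45.3 and 47 with it. Treated wild type was lowest. MKK2 was at 35.7 and 35.1 normalised FPKM in wild type without and 48.2 and 46.2 with hygromycin B. In the knockout MKK2 was at 36.9 and 37 without and 42.7 and 43.2 with it. MKK1 exceeded MKK2 in every library but those of treated wild type. MKK1 fell by 0.93 ± 0.061 in wild type (limma adjusted p = 1.64e-05; lost with FPKM as deposited) and MKK2 rose by 0.41 ± 0.047 (adjusted p = 0.00022). RLM1, which encodes the transcription factor, had no call in wild type (0.06 ± 0.16, adjusted p = 0.741) and differed by −0.63 ± 0.16 in the treated knockout from treated wild type (adjusted p = 0.0103).

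Without hygromycin B, 4 of the 49 genes were higher in the knockout than in wild type and 12 lower, while 23.2% of all genes were higher and 19.8% lower; the median was −0.03 against 0.03. The 4 higher ones were all glucan-remodelling genes: UTR2, SUN4 (0.43 ± 0.085), GAS3 (0.31 ± 0.056) and GAS5 (0.31 ± 0.065). The lower ones were PRM5, PIR3, KNH1, GAS4, YPS1, SLT2, GSC2, GAS2, CHS1, PST1, SLG1 and EXG1. Among these, CHS1 was −0.47 ± 0.051 (limma adjusted p = 0.00105), GSC2 −0.54 ± 0.09 (adjusted p = 0.00451), SLG1 −0.23 ± 0.058 and EXG1 −0.21 ± 0.065. The abundant mannoproteins, among them CCW12 (0.05 ± 0.15), CWP2 (0.06 ± 0.24) and SRL1 (0.03 ± 0.20), had no call.

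Only the lower levels of PRM5 and PIR3 held under all 17 alternatives. With FPKM as deposited 0 members were higher and 2 lower, and with TPM 0 and 10. All genes had medians of −0.26 and −0.19 under these scalings, and 14.1% and 11.4% of all calls were higher, against 54% here. The calls of GAS5, SUN4, SLG1 and EXG1, like that of GAS2, ended when a library was left out: GAS5 without library 2 of the untreated wild-type group (adjusted p = 0.057) or library 2 of the untreated knockout group (adjusted p = 0.062), SUN4 without library 2 of the untreated wild-type group (adjusted p = 0.0517) or library 2 of the untreated knockout group (adjusted p = 0.0573), SLG1 without library 1 of the untreated wild-type group (adjusted p = 0.0842), library 2 of the untreated wild-type group (adjusted p = 0.0745) or library 1 of the untreated knockout group (adjusted p = 0.0922), and EXG1 without library 1 of the untreated wild-type group (adjusted p = 0.155), library 2 of the untreated wild-type group (adjusted p = 0.131), library 1 of the untreated knockout group (adjusted p = 0.132), library 2 of the untreated knockout group (adjusted p = 0.141), library 1 of the treated knockout group (adjusted p = 0.0775) or library 2 of the treated knockout group (adjusted p = 0.0776).

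**Figure D4:**
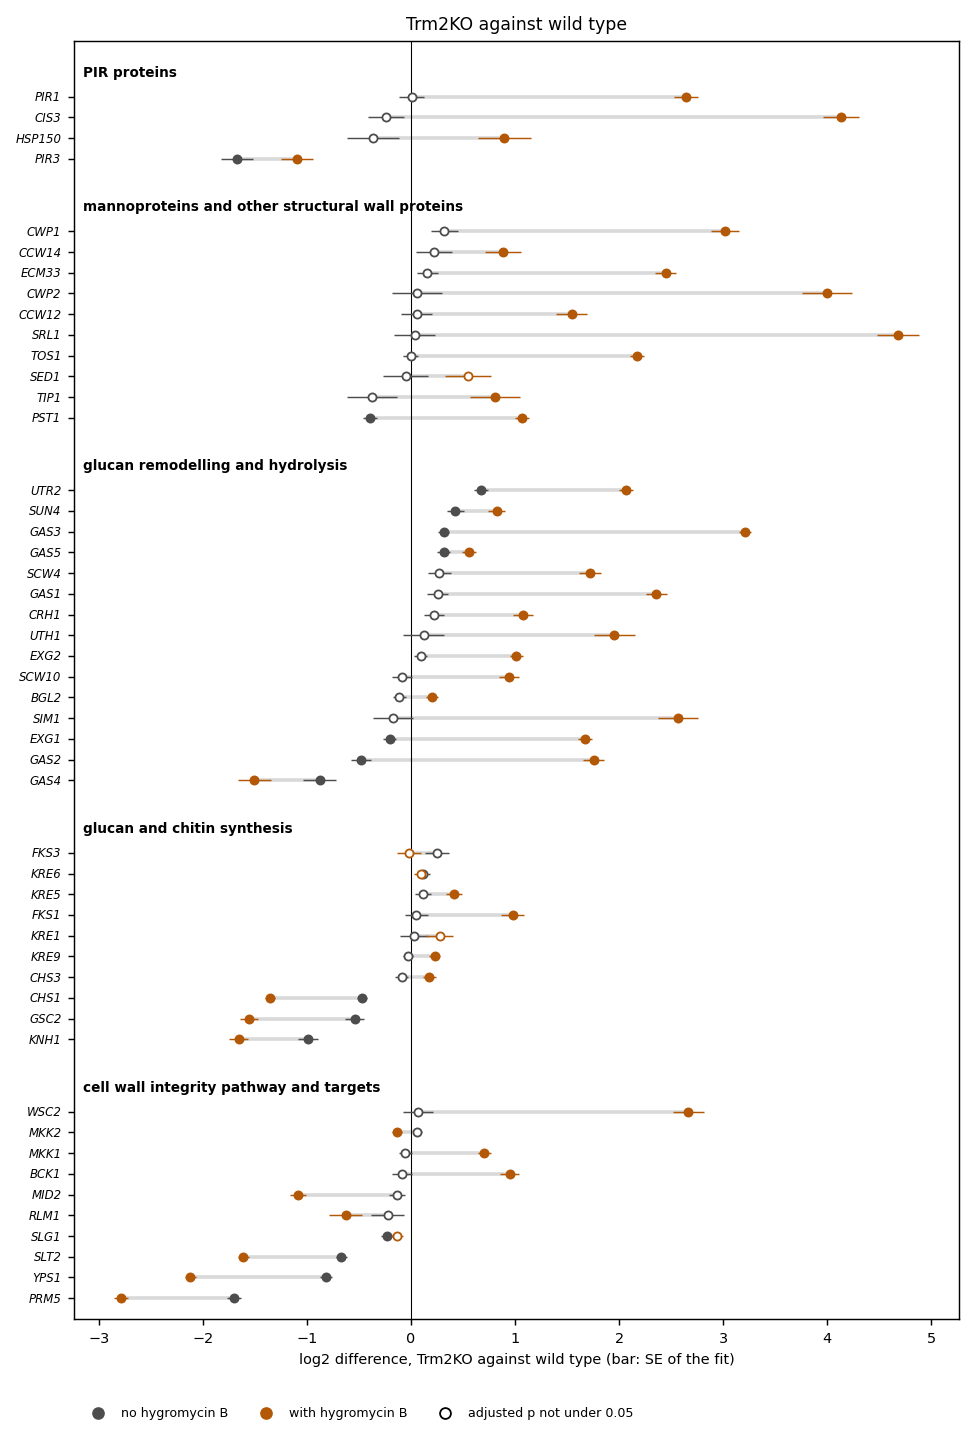
Log2 difference of Trm2KO from wild type (horizontal axis, bars are standard errors of the fit) without (grey) and with (orange) hygromycin B for each of the 49 genes (rows, by role); open circles mark differences whose adjusted p was not under 0.05. Without hygromycin B the differences lie between −1.70 and 0.67, and with it they reach 4.68 for SRL1 and −2.79 for PRM5.

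The ratio of paralogues, taken within a library, does not depend on the scale factor. FKS1 exceeded GSC2 by ratios of 6.17 and 6.63 in untreated and 1.29 and 1.3 in treated wild type, and of 10.3 and 9.4 in the untreated and 8.05 and 7.73 in the treated knockout. Treated wild type came close to parity and the knockout stayed above untreated wild type. The proteins are 89.3% identical over 1866 aligned residues, and their longest shared run of coding bases was 38.

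The ratio of ECM33 to PST1 was 3.85 and 3.69 in untreated and 1.19 and 1.3 in treated wild type, against 5.3 and 5.76 and 3.23 and 3.28 in the knockout. MKK1 to MKK2 went from 1.53 and 1.53 to 0.552 and 0.636 in wild type and from 1.38 and 1.43 to 1.06 and 1.09 in the knockout. CRH1 to UTR2 went from 0.659 and 0.686 to 1.66 and 1.79 in wild type and from 0.49 and 0.495 to 0.856 and 0.869 in the knockout. CRH1 passed UTR2 only in treated wild type. In these 3 pairs hygromycin B shifted the ratio the same way in both genotypes, without overlap, and by a larger factor in wild type.

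PIR1 to PIR3, divergent neighbours on chromosome XI, had ratios of 32.7 and 36.5 in untreated and 5.01 and 4.77 in treated wild type, and of 127 and 124 and 71.2 and 70.8 in the knockout. This pair spanned the widest range. Their longest shared run of coding bases was 81, and 10 windows of 75 bases in each, 1.05% and 1.11% of their windows, occur in both, so the authors' counting could split some reads between them. CIS3 to HSP150, neighbours on chromosome X, went from 0.675 and 0.611 to 0.0674 and 0.0509 in wild type and from 0.67 and 0.731 to 0.562 and 0.584 in the knockout. GAS3 to GAS5 went from 0.53 and 0.522 to 0.0622 and 0.0607 in wild type and from 0.54 and 0.513 to 0.433 and 0.413 in the knockout.

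SIM1 to SUN4 went from 1.13 and 1.28 to 0.155 and 0.209 in wild type and from 0.743 and 0.848 to 0.565 and 0.686 in the knockout. KRE9 to KNH1 shifted in the knockout and not in wild type: its ratio was 6.87 and 6.24 in untreated and 6.53 and 7.08 in treated wild type, which overlap, and 13.7 and 12.3 in the untreated and 25.5 and 27.2 in the treated knockout. CWP1 to CWP2 went from 0.0482 and 0.048 to 0.13 and 0.1 in wild type and lay between 0.0572 and 0.0605 in the knockout. SCW4 to SCW10 was 1.17 and 1.2 in untreated and 1.12 and 1.13 in treated wild type, and 1.45 and 1.59 and 1.92 and 1.92 in the knockout. EXG1 to EXG2 was 8.91 and 8.96 in untreated and 5.28 and 6.53 in treated wild type, and 7.13 and 7.36 and 9.37 and 8.93 in the knockout, so it was lower with hygromycin B in wild type and higher in the knockout.

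**Figure D5:**
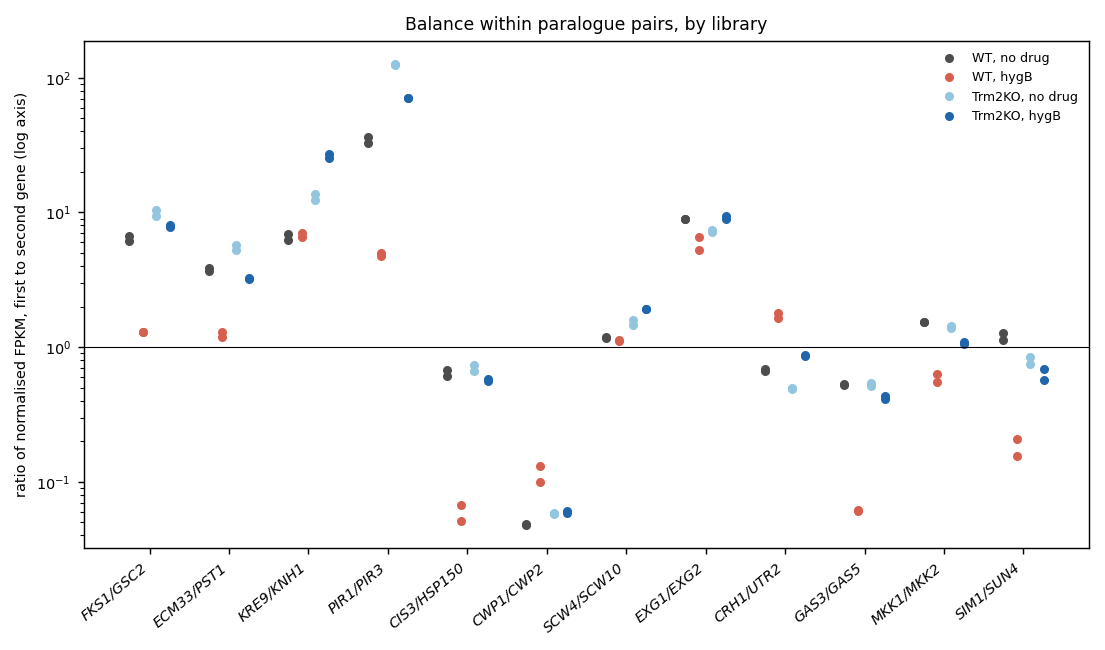
Ratio of normalised FPKM of the first to the second gene of 12 paralogue pairs (vertical axis, log scale) in each of the 8 libraries (points, coloured by group); the line marks a ratio of 1. FKS1/GSC2 falls to 1.29 and 1.3 in treated wild type (red), and PIR1/PIR3 runs from 4.77 there to 127 in the untreated knockout.

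Genes with the SBF letters in their upstream window were CCW12, CWP1, CWP2, SRL1, TOS1, ECM33, GAS1, GAS3, UTR2, EXG2, SCW4, SCW10, SUN4, SIM1, FKS1 and FKS3, where FKS3 and SCW10 are divergent neighbours that share the letters. With hygromycin B in wild type 15 of these 16 fell (median −2.41), the exception being FKS3, and 21 of the 33 members without the letters fell (median −0.39). Among genes outside the set, 55.3% of the 367 with the letters and 38% of the 5397 without them fell. Under hygromycin B 15 of the 16 and 18 of the 33 were higher in the knockout than in wild type, as were 58.6% of the other genes with the letters and 36.6% of those without. Without hygromycin B 3 of the 16 were higher in the knockout and none lower, and of the 33 members without the letters 1 was higher and 12 lower. Among the other genes 38.1% with the letters were higher and 12.5% lower, against 23.4% and 21.4% without them. By role, the letters were upstream of 6 of 10 structural, 8 of 15 remodelling, 2 of 10 synthesis, 0 of 4 PIR and 0 of 10 integrity genes. Of the structural and remodelling groups 9 of 10 and 14 of 15 fell in wild type with hygromycin B (38.4% of all genes). By level in untreated wild type, 23 of the upper 24 members and 13 of the lower 25 fell. The letters were not tested apart from role or level.

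The Rlm1 site was upstream of PIR3, HSP150, SED1, CCW12, CCW14, CWP1, PST1, GAS5, BGL2, BCK1, MKK1, RLM1 and YPS1. In wild type with hygromycin B 9 of these 13 fell and 1, YPS1, rose, and among the 36 members without it 27 fell and 8 rose. Outside the set, 34 of 103 genes with the site fell and 49 rose. PRM5 and SLT2, known targets of Rlm1, had no match in their windows. Of 13 genes known as Slt2 and Rlm1 targets, namely PRM5, PIR3, PST1, CWP1, HSP150, SED1, CIS3, SLT2, CRH1, FKS1, CHS3 and, from outside the set, NCW2 and KDX1, 4 rose and 7 fell with hygromycin B in wild type, and 0 were higher and 5 lower in the untreated knockout. Of all genes 40.4% rose and 38.4% fell in the first comparison, and 23.2% were higher and 19.8% lower in the second.

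Other genes of the integrity pathway, 24 in all, showed 7 rises and 10 falls in wild type with hygromycin B (all genes 40.4% and 38.4%) and 4 higher and 5 lower in the untreated knockout (all genes 23.2% and 19.8%). SDP1, a phosphatase that acts on Slt2, was at 14.7 and 10.5 normalised FPKM in wild type without and 78.5 and 63.6 with hygromycin B. In the knockout SDP1 was at 8.86 and 9.15 without and 17.9 and 19.6 with it. It rose by 2.42 ± 0.17 in wild type (limma adjusted p = 1.9e-05). BAG7, a GTPase activator of Rho1, was at 18.2 and 17 normalised FPKM in wild type without and 74.4 and 65.1 with hygromycin B. In the knockout BAG7 was at 3.25 and 3.26 without and 7.02 and 6.97 with it. Treated wild type was highest and the untreated knockout lowest, as for PRM5. BAG7 rose by 1.92 ± 0.087 in wild type (adjusted p = 3.82e-06) and was lower in the untreated knockout (−2.13 ± 0.087, adjusted p = 6.08e-05). WSC4, of the WSC sensor family, fell by 2.53 ± 0.15 in wild type (adjusted p = 1.08e-05), with −0.17 ± 0.15 in the knockout.

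SWI4, the DNA-binding subunit of SBF, was at 21.2 and 20.9 normalised FPKM in wild type without and 21.9 and 18.3 with hygromycin B. In the knockout SWI4 was at 46.3 and 40.4 without and 51.9 and 53.4 with it. Knockout libraries lay above wild-type ones with and without hygromycin B, and wild-type libraries overlapped. SWI4 was higher in the untreated knockout (1.00 ± 0.10, limma adjusted p = 0.000794; lost with FPKM as deposited), and its change with hygromycin B in wild type was −0.07 ± 0.10 (adjusted p = 0.535). ZEO1, a peripheral membrane protein that binds Mid2, was also higher in the untreated knockout (1.42 ± 0.12, adjusted p = 0.000433; lost with FPKM as deposited).

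Of 18 further chitin genes tested, of 19 listed, 7 rose and 7 fell in wild type with hygromycin B (all genes 40.4% and 38.4%), and 7 rose and none fell in the knockout (all genes 20.9% and 22.3%). CHS2, which lays down the septum, fell by 2.52 ± 0.14 in wild type, from 32.2 and 36.9 to 4.37 and 6.16 normalised FPKM (limma adjusted p = 8.51e-06). SHC1, an activator of chitin synthesis in spores, rose by 2.13 ± 0.12, from 3.8 and 3.86 to 22 and 18.6 (adjusted p = 8.82e-06). CTS1, the chitinase of cell separation, fell by 1.68 ± 0.11, from 1000.1 and 998 to 278 and 351 (adjusted p = 1.35e-05; lost with FPKM as deposited). In the knockout with hygromycin B, CTS1 was at 1506 and 1482, against 1157 and 1132 untreated. Between untreated genotypes 5 of the 18 were higher in the knockout and 3 lower (all genes 23.2% and 19.8%). CHS2 was higher there (0.54 ± 0.14, adjusted p = 0.023), as was GNA1 of chitin precursor synthesis (0.33 ± 0.057, adjusted p = 0.00562), and CDA1, a chitin deacetylase of spores, was lower (−0.85 ± 0.19, adjusted p = 0.0144). FPKM as deposited and TPM ended these 3 calls, and those of CHS2 and CDA1 also ended when 1 of several libraries was left out.

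All 11 further glucan genes changed in wild type with hygromycin B, 4 up and 7 down (all genes 40.4% and 38.4%). SCW11, a glucanase of daughter cells, fell by 1.96 ± 0.082 (limma adjusted p = 2.94e-06), CWH41, glucosidase I of the endoplasmic reticulum, by 1.40 ± 0.055 (adjusted p = 2.4e-06) and ROT2, a subunit of glucosidase II, by 1.02 ± 0.056 (adjusted p = 7.9e-06); the calls of CWH41 and ROT2 were lost with FPKM as deposited. Between untreated genotypes 4 were higher in the knockout and 2 lower (all genes 23.2% and 19.8%). There DSE4, a daughter-specific glucanase, was higher (0.95 ± 0.066, adjusted p = 0.00025), while SKN1, the paralogue of KRE6, was lower (−0.89 ± 0.048, adjusted p = 0.000125), as was SPR1, a glucanase of sporulation (−0.89 ± 0.10, adjusted p = 0.00109). FPKM as deposited ended these 3 calls.

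What most members share besides their role is protein composition. Translated from the RefSeq coding sequences, 41 of the 49 proteins lay above the median share of serine and threonine of all 5932 proteins compared, with medians of 23.3% and 13.8%. SRL1 was highest, at 42.9%, and SLT2 lowest, at 8.88%. The repeat that names the PIR proteins occurred 11 times in HSP150, 8 times in PIR1 and in PIR3, and 1 time in CIS3, CWP1 and CWP2, among 10 proteins that hold it in all.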

How the data were processed

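The authors deposited 1 table of FPKM values for 7127 features in 8 libraries. RSEM 1.3.3, STAR 2.7.8a, cutadapt 2.3 and FastQC 0.11.8 were used, per the submitters' processing notes. Build, annotation and strand setting are not given in the sources used here. The table holds no counts, and whole-read steps were sought in low values against 10 shuffles of gene length. In treated knockout library 2 the best periodicity, 0.204, was matched by 0 of 10 shuffles. In the other libraries it was 0.151 to 0.239 and was matched by 6 to 8 of 10. No step size was read from this, so depth is unknown and no counting interval is given.

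Groups came from the sample labels. FPKM were divided by median-ratio scale factors, and log2(value + 1) was taken. The 6439 genes whose FPKM averaged 1 or more entered a limma fit (limma 3.58.1, R 4.3.3, all 8 libraries in 1 fit, eBayes with trend, 4 residual degrees of freedom, 6.39 after moderation), two-sided, with Benjamini-Hochberg adjustment over all genes of each of 5 comparisons. Adding 1 understates changes of low genes. P values measure the spread between these duplicates only. Changes are relative to the other transcripts of a library.

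Values per library are given for up to 5 members of each role group with the largest called change in any 2-group comparison and for both members of 12 paralogue pairs, and other members are given by range or change. Of each further list, up to 3 genes with the largest called change with hygromycin B in wild type and up to 3 between untreated genotypes are named; CCW12, SED1, TIP1, MID2 and GAS4 were added for their levels or calls. The members, lists, sites and rules were chosen with earlier results of these data known. Alternatives were FPKM as deposited, TPM, quantile normalisation, pseudocounts of 0.1 and 5, no filter, a mean of at least 10, fits of the compared groups alone, a replicate block, and leaving out each library. Upstream sequences and proteins come from RefSeq R64 (Biopython 1.88).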

Additional observations from a re-analysis of the deposited data

Results flagged for a closer look

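The change with hygromycin B differed between wild type and knockout, by limma's interaction test over all genes, for 39 of the 49 wall genes. Values are the log2 change in the knockout minus that in wild type, and 30.6% of all genes tested were called higher and 33.9% lower. Among PIR proteins they were CIS3 (4.37), PIR1 (2.63) and HSP150 (1.26). Among mannoproteins and other structural proteins they were CCW12 (1.49), CWP1 (2.69), CWP2 (3.94), TIP1 (1.19), SRL1 (4.65), TOS1 (2.18), ECM33 (2.29) and PST1 (1.46). Among genes of glucan remodelling they were GAS1 (2.1), GAS2 (2.23), GAS3 (2.9), CRH1 (0.854), UTR2 (1.4), BGL2 (0.313), EXG1 (1.88), EXG2 (0.918), SCW4 (1.44), SCW10 (1.03), SUN4 (0.396), UTH1 (1.83) and SIM1 (2.73), with GAS4 (−0.626) the other way. Synthesis genes with a more positive change in the knockout were FKS1 (0.926), CHS3 (0.267) and KRE9 (0.256), and those with a more negative one GSC2 (−1.01), CHS1 (−0.886) and KNH1 (−0.669). In the integrity group WSC2 (2.6), BCK1 (1.04) and MKK1 (0.757) were more positive, and MID2 (−0.951), MKK2 (−0.194), SLT2 (−0.941), PRM5 (−1.09) and YPS1 (−1.3) more negative. Of these 39 calls, 31 held without each library in turn and 11 held under every alternative; the 8 lost without some library were BGL2, CHS3, GAS4, HSP150, KRE9, MKK2, SUN4 and TIP1, with an adjusted p of up to 0.132. With 2 libraries a group, no library could be tested as standing apart from its group.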

How the results depend on the processing

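Among the 5 comparisons, the count of changed members and their median moved most with the scaling. In the order untreated genotypes, hygromycin B in wild type, hygromycin B in the knockout, treated genotypes and interaction, the main counts were 16, 45, 26, 44 and 39; with FPKM as deposited they were 2, 24, 0, 26 and 11, with medians of −0.33, −0.46, 0.14, 0.38 and 0.65, while the median of all genes moved to −0.26, 0.61, 0.36, −0.53 and −0.24. With TPM the counts were 10 between untreated genotypes and 6 in the knockout, and the first 4 medians were −0.26, −0.67, 0.034 and 0.56. Quantile normalisation gave medians of −0.15 in the knockout and 0.77 between treated genotypes. Leaving out each library gave counts of 11 to 22, 43 to 46, 13 to 34, 39 to 46 and 31 to 43, and medians of −0.07 to −0.01, −1.16 to −0.98, −0.28 to −0.23, 0.63 to 1.07 and 0.72 to 0.97. Genes changed in all numbered 2771, 5071, 2778, 4970 and 4152, with FPKM as deposited 163, 2550, 105, 2128 and 469, with TPM 1032, 1513 and 2238 between untreated genotypes, in the knockout and for the interaction, and between untreated genotypes 1693 to 3249 and in the knockout 1466 to 3290 over left-out libraries. The cause was not tested.

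Directions turned in these cases, none past the threshold except FKS3. With FPKM as deposited they were, as log2 values, between untreated genotypes ROT2 −0.031, and with hygromycin B in wild type GAS5 0.16, BGL2 0.23, KRE1 0.091, KRE5 0.25, KRE9 0.40, KNH1 0.34, SLG1 0.26 and PIR5 0.11, and with hygromycin B in the knockout ECM33 0.015, GAS5 0.20, EXG1 0.17, FKS1 0.060, SLG1 0.15, BCK1 0.049, YPS1 0.13, CWH41 0.14 and ROT2 0.21, and between treated genotypes BGL2 −0.31, CHS3 −0.32, KRE5 −0.076, KRE9 −0.28 and SKN1 −0.29. With TPM they were with hygromycin B in wild type BGL2 0.0083, KRE5 0.036, KRE9 0.18, KNH1 0.12 and SLG1 0.045, and with hygromycin B in the knockout GAS5 0.091, EXG1 0.070, SLG1 0.050, YPS1 0.030, CWH41 0.033 and ROT2 0.10, and between treated genotypes BGL2 −0.12, CHS3 −0.14, KRE9 −0.096 and SKN1 −0.11. With quantile normalisation they were with hygromycin B in wild type BGL2 0.0049 and KRE9 0.046, and with hygromycin B in the knockout EXG1 0.016, and between treated genotypes BGL2 −0.045, FKS3 0.48 and ZEO1 −0.17. Of the members' calls, 2 of 16, 24 of 45, 0 of 26, 26 of 44 and 11 of 39 held under every alternative.

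No pairing of the libraries by replicate number was shown: deviations of same-numbered libraries correlated at −0.232 to 0.256 across groups. The highest value was between the untreated groups, and a batch shared by only some groups was not tested. A fit with the replicate number as a block gave counts of 15, 45, 26, 44 and 39, and not all of the same members. It ended the calls of EXG1 between untreated genotypes, FKS1 in the knockout, CHS3 between treated genotypes and GAS4 and MKK2 for the interaction, and it added UTH1 in the knockout, SED1 between treated genotypes and CCW14 and KRE5 for the interaction. The 5 counts came with medians equal to those reported (−0.03, −1.07, −0.26, 0.88 and 0.85). Where leaving out a library left a group with 1, that library was taken to vary like the other groups. Read depth is unknown, so low genes such as FKS3 and GAS4 carry an error that cannot be set from counts.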

Other observations

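Of 25 other wall and surface proteins, 10 rose and 10 fell with hygromycin B in wild type (all genes 40.4% and 38.4%). In the untreated knockout 5 were higher and 7 lower (all genes 23.2% and 19.8%), and in the knockout 3 rose and 4 fell with hygromycin B (all genes 20.9% and 22.3%). AGA1 and AGA2 are the subunits of the agglutinin of a cells. With hygromycin B in wild type, AGA1 went from 107 and 116 to 12.5 and 18.3 normalised FPKM and AGA2 from 397 and 386 to 72.1 and 58.6. They fell by 2.80 ± 0.15 (limma adjusted p = 7.86e-06) and 2.57 ± 0.12 (adjusted p = 4.43e-06), and no alternative ended either call. In the knockout AGA2 was at 203 and 167 untreated and 166 and 175 treated, ranges that overlap. YPS6, a yapsin like YPS1, rose from 8.1 and 7.38 to 56 and 47.6 in wild type (2.59 ± 0.11, adjusted p = 3.3e-06) and from 6.62 and 6.21 to 11.5 and 13.3 in the knockout (0.85 ± 0.11, adjusted p = 0.0021; lost with FPKM as deposited).

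PIR5, a further member of the PIR family, was lower in the untreated knockout like PIR3, at 4.45 and 4.62 against 15.4 and 13.4 normalised FPKM (−1.48 ± 0.11, limma adjusted p = 0.000339), a call held under each of its alternatives. SPI1, a GPI wall protein induced by weak acids, was also lower there, at 32.5 and 34.4 against 78.8 and 61.9 (−1.04 ± 0.11, adjusted p = 0.000955; lost with FPKM as deposited), and rose in both genotypes with hygromycin B, by 1.22 ± 0.11 in wild type (adjusted p = 6.75e-05) and 1.03 ± 0.11 in the knockout (adjusted p = 0.0011; lost with FPKM as deposited).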
